A study of Mus musculus with 8 samples.

Results

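The genes described are 7 subunits of the voltage-gated sodium channel family (Scn3a, Scn3b, Scn4a, Scn4b, Scn7a, Scn8a and Scn9a), taken by symbol from a table of 24980 genes. They are 5 genes of the pore-forming family and 2 beta subunits. Scn9a was chosen by its normalized counts in these libraries, which were low in all groups but one, so its levels are given as a description without a test. The remaining 6 were taken because they belong to the same family. All 7 passed the filter on low counts, among 17582 genes tested. Scn4b passed it through fresh satellite cells alone, with 0 libraries of other groups past the minimum, so its differences are also given without a test.

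The 8 RNA-seq libraries came from mouse myogenic cells in 4 groups, each with 2 biological replicates. Fresh teratoma-derived cells (TF) were sorted from teratomas that EGFP-labelled mouse embryonic stem cells had formed in irradiated, cardiotoxin-injured muscle of NSG-mdx4Cv hosts, and they were negative for CD31 and CD45 and positive for α7-integrin and VCAM-1. Expanded teratoma-derived cells (TE) were such cells after culture to passage 8 on gelatin. Fresh satellite cells (SF) came from adult mouse muscle, and expanded satellite cells (SE) had been cultured to the same passage. E14 was the stem cell line used through most of the study. For the satellite cell donors, the strain, the age and any pooling of animals are not given in the sources used here. The libraries held 11930961 to 21146632 counts, of which the ribosomal RNA precursor Rn45s took 7.99% to 21.3%. Replicates differed by more than counting noise in each group, least in TE (chi-square per degree of freedom 11.7) and most in SE (87.2). The myogenic markers Pax7, Itga7 and Vcam1 were detected in all 8 libraries. Pecam1, which encodes CD31, was also found in fresh libraries at 84.9 to 1228 normalized counts, although the sort was against that protein.

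Voltage-gated sodium channels open when a membrane depolarizes and carry the sodium current that starts the action potential of nerve and muscle. One large alpha subunit forms the pore, and small beta subunits with a single membrane span adjust its gating and its delivery to the cell surface. In skeletal muscle the adult channel is encoded by Scn4a. Scn9a is best known from sensory and sympathetic neurons, where it is required for normal pain sensing.

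The promoters of Scn9a, Scn7a and Scn4a are shown because the group means of these 3 members spread widest in normalized counts. Each window runs from 250 bases before to 50 bases after the RefSeq start (GRCm38.p6), 5′ to 3′ on the gene's strand. Capitals mark E-boxes (CANNTG), the hexamer bound by basic helix-loop-helix factors such as Myod1 and Myog.
Scn9a, chr2:66634913-66635212, minus strand: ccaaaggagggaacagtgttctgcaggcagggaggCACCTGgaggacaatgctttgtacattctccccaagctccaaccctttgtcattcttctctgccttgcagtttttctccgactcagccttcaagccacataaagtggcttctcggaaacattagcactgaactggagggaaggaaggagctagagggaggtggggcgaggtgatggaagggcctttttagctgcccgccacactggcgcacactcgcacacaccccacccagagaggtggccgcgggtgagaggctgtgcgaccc
Scn7a, chr2:66784861-66785160, minus strand: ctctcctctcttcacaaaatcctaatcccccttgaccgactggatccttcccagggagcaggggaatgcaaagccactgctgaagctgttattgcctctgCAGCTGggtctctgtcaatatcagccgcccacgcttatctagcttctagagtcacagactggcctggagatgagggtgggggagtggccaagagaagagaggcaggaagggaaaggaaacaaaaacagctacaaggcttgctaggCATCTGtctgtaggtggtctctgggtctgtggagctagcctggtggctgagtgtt
Scn4a, chr11:106349341-106349640, minus strand: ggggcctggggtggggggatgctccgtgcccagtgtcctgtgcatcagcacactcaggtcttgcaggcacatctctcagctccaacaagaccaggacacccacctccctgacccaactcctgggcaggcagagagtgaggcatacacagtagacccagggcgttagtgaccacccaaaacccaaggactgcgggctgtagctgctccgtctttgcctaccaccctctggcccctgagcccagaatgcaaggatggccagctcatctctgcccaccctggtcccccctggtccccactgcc
The Scn9a window held 1 E-box, CACCTG, which began 215 bases before the start. The Scn7a window held CAGCTG at 150 bases and CATCTG at 5 bases before the start. The RefSeq start used for Scn4a lies inside the gene as GENCODE annotates it (chr11:106318592-106353288, minus strand), downstream of the start annotated there, so that the window is not the promoter of that longer form. The Scn4a window held no E-box, as did that of Scn4b, and the first of the 2 Scn8a windows held CATTTG and CAGTTG. Among 32851 promoter windows of the same length, 72.31% held CANNTG and 16.3% held CAGCTG. The motif reads as CANNTG on both strands, and a match is a description of the letters only.

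Scn9a was abundant in SE and had few or no counts elsewhere. Its normalized counts, which are counts divided by a median-ratio size factor, were 4123 in SE1 and 607 in SE2. They were 14.7 and 13.5 in TF, 20.4 and 0 in SF, and 0 in both TE libraries. The SE libraries therefore did not overlap with any other, and the lower of them was 29.8 times the highest library outside SE. The mean in SE was 2365 ± 2486 (SD, n = 2), against 14.1 ± 0.859 in TF and 10.2 ± 14.4 in SF. Against a limit of 3 counts per library in TE, the SE mean was at least 1037-fold higher than TE. That bound is for the mean, most of which came from SE1, and not for SE2 alone. The SE mean was 232 times that of SF and 167 times that of TF. TE and SE had been cultured to the same passage, and they stood at opposite ends of the range for this gene.

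**Figure D1:**
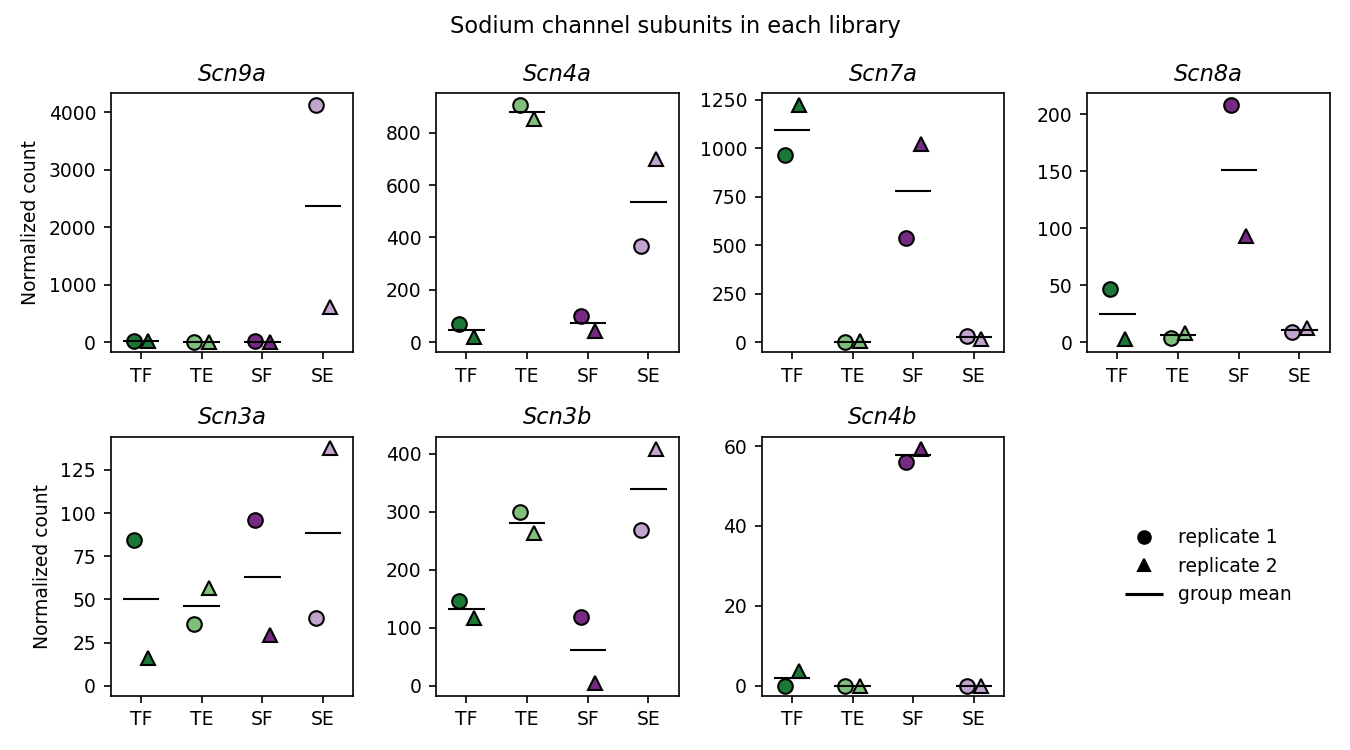
Normalized counts (linear axis, starting near 0) of the 7 members in the 4 groups. Circles are replicate 1, triangles replicate 2 and bars the group mean, and Scn9a reached 4123 and 607 in SE but no more than 20.4 in the other 6 libraries.

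The SE replicates disagreed about the level of Scn9a. SE1 was 6.79 times SE2 (exact 95% binomial interval 6.28 to 7.36, for counting error only), and of 11142 genes with a mean of at least 50 in SE only 32, or 0.287%, had as high a ratio in favor of SE1. The other 3 members above that mean went the opposite way. Scn3a was 3.54 times, Scn4a 1.90 times and Scn3b 1.52 times as high in SE2. The 12 muscle differentiation genes were likewise all higher in SE2, by 1.32 to 7.64 times. Myog, the transcription factor of early differentiation, was at 3993 in SE1 and 13510 in SE2. Of 7 myogenic progenitor markers 4 were higher in SE2 and 3 in SE1, among them Pax7 at 1743 in SE1 and 1174 in SE2. With 2 libraries these replicate differences carry no test, and which of the 2 is typical of expanded satellite cells was not tested.

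**Figure D2:**
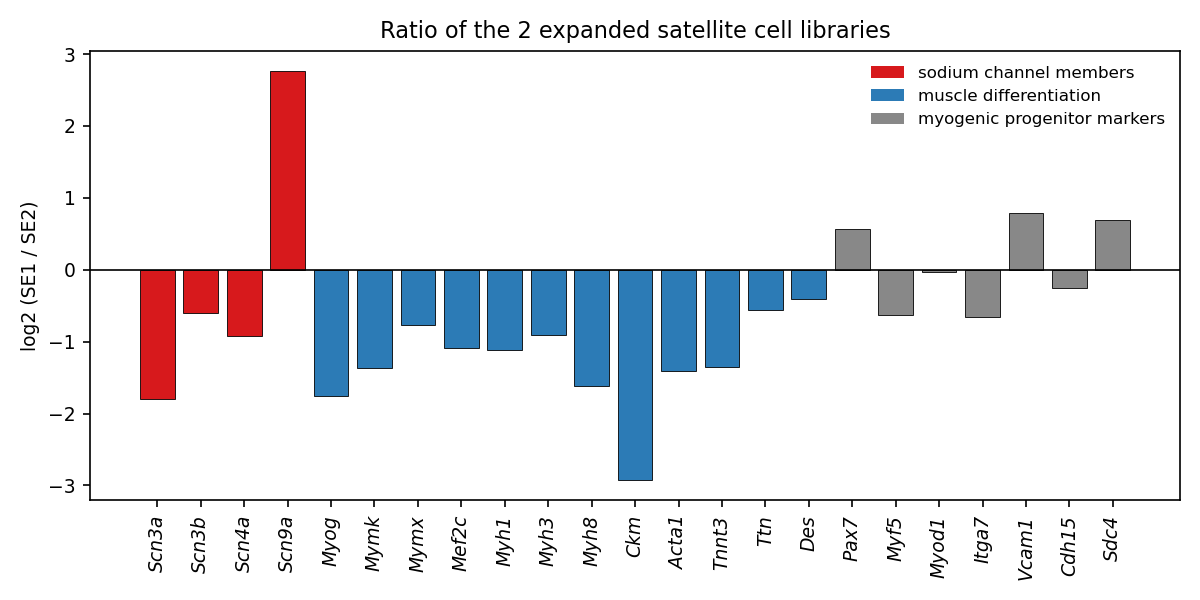
Ratio of SE1 to SE2 on the log2 scale for the 4 members with a mean of at least 50 in SE (red), 12 muscle differentiation genes (blue) and 7 myogenic progenitor markers (gray). Scn9a stands at 2.76, while the other 3 members and all 12 differentiation genes lie below 0.

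Because Scn9a is a neuronal channel, 7 neuron markers were read in the same libraries. From SF to SE 3 were called higher, Nefl, Tubb3 and Stmn2, and 0 lower (edgeR's test, against 20.9% and 19.8% of all genes). With median-ratio scaling 2 were called higher and 0 lower, where 3065 and 3956 of 17582 genes were. From TF to TE 1 was called higher, Stmn2, and 1 lower, Nefl (9.86% and 16.2% of all genes). Tubb3 was at 117 and 74.7 in SE and at 112 and 83.3 in TE. Nefl, a neurofilament chain, was at 899 in SE1 and 42.0 in SE2, while it was 0 in both TE libraries. Stmn2 rose by 2.68 ± 0.50 on the log2 scale and Tubb3 by 3.01 ± 1.08 (adjusted p = 0.00226 and 0.0488, edgeR). Snap25, at 124 and 42.4 in SF and 8.58 and 5.20 in SE, and Elavl3, at 96.7 and 31.03 in SF and 1.44 and 4.31 in SE, did not pass. Elavl4 and Syt1, also neuronal, were 0 in all 4 expanded libraries. Summed over 7 markers, the level was 1462 in SE1 and 361 in SE2 against 1328 and 1081 in TE, where Stmn2 made up most of it, and 121 to 419 in the fresh libraries. The part of other cell types in the Scn9a level was not tested beyond these values.

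Scn9a lies at chr2:66480080-66634962 on the minus strand (GRCm38, GENCODE vM21), within a cluster of 5 sodium channel genes that spans 1327797 bases and also holds Scn3a (chr2:65457118-65567627) and Scn7a (chr2:66673425-66784914). Of the 31-base words in its GENCODE transcripts, 6.23% occur in other genes, most of them in Scn3a. Reads were not examined, and how they were divided between these genes was not tested. Scn3a shared 9.57% of its words, chiefly with Scn2a, and each of the other 5 members shared 0 to 0.902%. Gm13629, a gene on the opposite strand that overlaps Scn9a, was at 0 counts in both SE libraries. None of 9 protein-coding genes inside or next to the cluster was near 0 outside SE and high in SE. Ttc21b, which lies inside the cluster, was at 370 and 310 in SE against 116 and 156 in SF, a log2 difference of 1.51 ± 0.37 (standard error, as in all log2 differences) and an adjusted p of 0.0091 (edgeR's quasi-likelihood test, Benjamini-Hochberg). Grb14 was higher in SE than in TE (adjusted p = 0.0193), as was Cobll1 (adjusted p = 0.00317), both by the same edgeR test, but both were also expressed in TF and SF.

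Scn4a, the adult skeletal muscle channel (chr11:106318592-106353288), was higher after expansion in both cell sources. It measured 905 and 851 normalized counts in TE against 70.1 and 19.7 in TF. In SE it was 368 and 701, against 101 and 43.3 in SF. No expanded library overlapped with a fresh one. Scn4a rose by 4.35 ± 0.62 on the log2 scale in teratoma-derived cells (adjusted p = 0.000804) and by 3.10 ± 0.58 in satellite cells (adjusted p = 0.00234, both by edgeR's quasi-likelihood test with Benjamini-Hochberg adjustment). The ratios of means were 19.6 and 7.43. The call held in all 13 alternative fits of each comparison. The difference between TE and SE in Scn4a did not pass the test (log2 difference 0.74 ± 0.52, adjusted p = 0.496, edgeR), nor did the difference between the 2 expansion effects (adjusted p = 0.339, edgeR).

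Scn7a encodes NaX, a relative of the alpha subunits that responds to the sodium concentration rather than to voltage. It was the most abundant member per kilobase in the fresh cells and fell on expansion in both sources. TF had 963 and 1222 normalized counts and SF 535 and 1023, while TE had 0 and 6.94 and SE 34.3 and 14.6. Fresh and expanded libraries did not overlap. Scn7a fell by 8.21 ± 0.84 on the log2 scale from TF to TE (adjusted p = 0.000114) and by 4.79 ± 0.67 from SF to SE (adjusted p = 0.000441, edgeR's quasi-likelihood test with Benjamini-Hochberg adjustment). The mean was 315 times higher in TF than in TE and 31.8 times higher in SF than in SE, and both calls held in all 13 alternatives. The fold against TE rests on 1 library with reads, and leaving out TE2 gave a log2 change of -13.13. The log2 difference between TE and SE was -2.79 ± 0.86 (adjusted p = 0.0907, edgeR), which was past the threshold without TE2 (adjusted p = 0.0086) or without SE2 (adjusted p = 0.0147).

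Many markers of 5 other cell types were also lower after expansion, and none of these was called higher (edgeR's test, against 19.8% of all genes lower from SF to SE and 16.2% from TF to TE). The sum of 4 fibro-adipogenic markers (Pdgfra, Dcn, Lum and Pi16) was 12121 to 25029 normalized counts in the fresh libraries and 23.1 to 72.6 in the expanded ones. All 4 were called lower in both cell sources. The sum of 5 endothelial markers ranged from 1034 to 5825 in fresh and from 6.94 to 33.6 in expanded libraries, and Kdr was 0 in all 4 of the latter. All 5 were called lower in both sources. Schwann cell markers, 6 in number, summed to 189 to 1218 in fresh and 54.1 to 82.5 in expanded libraries, with 3 of 6 called lower from SF to SE and 2 of 6 from TF to TE. Of these Foxd3 was at 15.3 and 23.9 in SF and 0 in both SE libraries, but at 24.7 and 2.46 in TF and 47.2 and 28.5 in TE. The sum of 4 haematopoietic markers was 297 to 2464 in fresh and 11.2 to 94.4 in expanded libraries, and 2 of 4 were called lower from SF to SE and 4 of 4 from TF to TE. That of 5 pericyte and smooth muscle markers was 9089 to 14375 and 941 to 1946, with 4 of 5 and 5 of 5 called lower. In these bulk samples fewer cells of a type and less RNA per cell cannot be told apart, and the part of these cells in the Scn7a, Scn8a and Scn4b levels was not tested.

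**Figure D3:**
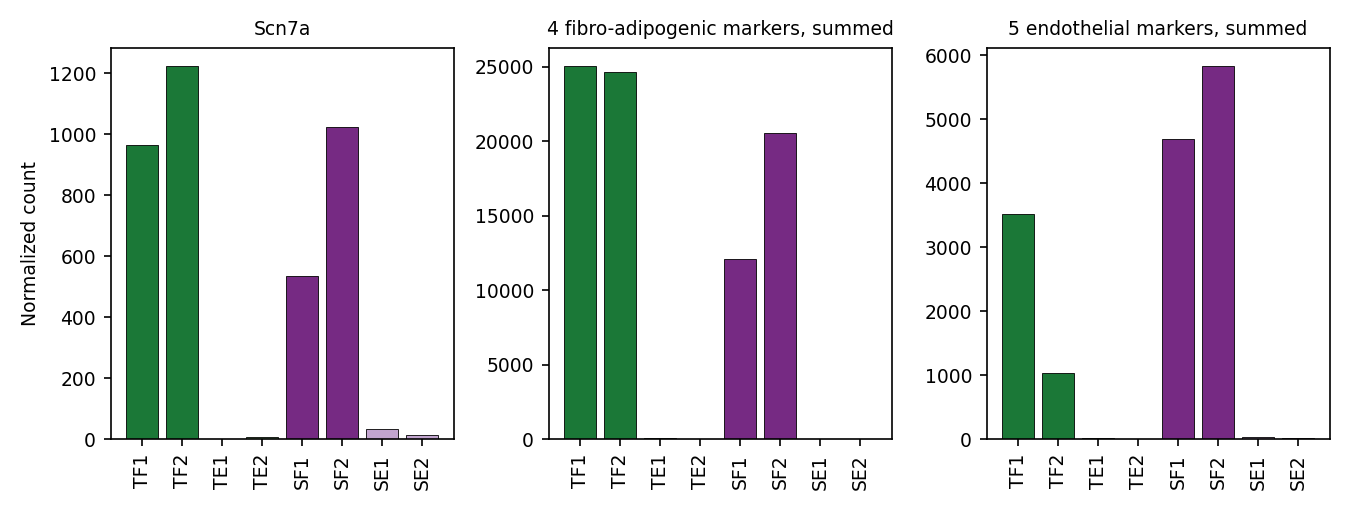
Scn7a (left), the sum of 4 fibro-adipogenic markers (middle) and the sum of 5 endothelial markers (right) in each library, in normalized counts with axes from 0. All 3 were high in the 4 fresh libraries, and in the expanded ones Scn7a was at most 34.3 and the sums at most 72.6 and 33.6.

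Scn8a, which encodes the main channel of the nodes of Ranvier (chr15:100869858-101045938), was highest in SF. It was at 208 and 93.6 there, at 46.7 and 2.46 in TF, at 3.74 and 8.48 in TE and at 8.59 and 12.9 in SE. SF did not overlap with any other group. From SF to SE the log2 difference was -3.60 ± 1.30, which narrowly missed the threshold (adjusted p = 0.0511, edgeR), and the SF mean was 14.1 times the SE mean. In 8 of 13 alternatives the difference passed, median-ratio scaling among them (adjusted p = 0.0436, edgeR). Leaving out TF1, TF2, TE1 or TE2 gave a log2 difference of -3.57 each time. The difference passed in each of these fits, and the cause was not tested. These libraries are not part of the comparison but enter the estimate of the spread that all 4 groups share. From TF to TE the log2 difference was -1.93 ± 1.26 (adjusted p = 0.282, edgeR), and it was 1.35 without TF1.

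Scn3a, a channel of the embryonic nervous system, varied as much within groups as between them. Its normalized counts were 84.4 and 16.1 in TF, 35.9 and 56.8 in TE, 95.9 and 29.5 in SF, and 39.0 and 138 in SE. All groups overlapped. No comparison passed, with log2 differences of 0.70 ± 1.01 from SF to SE and -0.05 ± 1.01 from TF to TE (adjusted p = 0.592 and 0.982, edgeR's quasi-likelihood test).

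Of the 2 beta subunits, Scn3b (chr9:40269217-40291618) was higher in every expanded library than in any fresh one. It was at 118 and 4.56 in SF and at 269 and 408 in SE. In teratoma-derived cells it was at 147 and 117 before and 299 and 262 after expansion. Scn3b rose from SF to SE by 2.70 ± 0.93 on the log2 scale (adjusted p = 0.0427, edgeR). That call was lost without SE2 (adjusted p = 0.0669), with median-ratio scaling (0.0631) and with only these 2 groups in the fit (0.106), and the change was 6.34 without SF1 and 1.77 without SF2, which held few reads of this gene. From TF to TE the difference was 1.14 ± 0.88 (adjusted p = 0.36, edgeR), and it passed with only these 2 groups in the fit (adjusted p = 0.0251, edgeR). It also passed without SF1 (log2 difference 1.17) or SF2 (1.15), libraries that enter the shared estimate of the spread. The cause was not tested.

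Scn4b (chr9:45138395-45154152) was found almost only in fresh satellite cells. SF had 56.1 and 59.3 normalized counts, TF had 0 and 3.69, and all 4 expanded libraries had 0. SF thus stood apart from every other library. Against the limit of 3 counts per library SF was at least 24.4-fold higher than SE and at least 15.2-fold higher than TF. Because the gene was tested only through its SF reads, these are descriptions. TF and TE were both at the limit, and no fold is given.

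**Figure D4:**
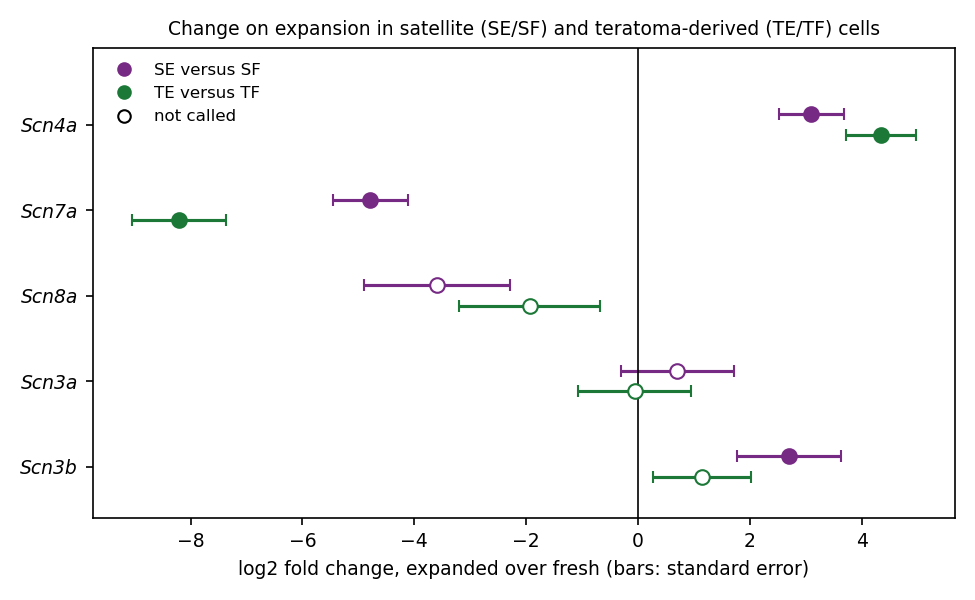
The log2 fold change of expanded over fresh cells in satellite cells (purple) and teratoma-derived cells (green), with bars for 1 standard error. Filled points passed the test, and Scn4a (3.10 and 4.35) and Scn7a (-4.79 and -8.21) did so in both. Scn9a is left out because it was selected on its level, and Scn4b because SE, TE and TF were at the limit.

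Scn9a and Scn4b aside, 3 of 5 members were called from SF to SE, 2 higher (Scn3b, Scn4a) and 1 lower (Scn7a). Of all genes tested 40.7% were called in that comparison, 20.9% higher and 19.8% lower. From TF to TE 2 of 5 were called, Scn4a higher and Scn7a lower, against 26.1% of all genes, 9.86% higher and 16.2% lower. With so few genes these shares are not read as a result about the members. The median log2 fold change of the 5 was 0.70 from SF to SE, beside -0.23 over all genes, and -0.053 from TF to TE, beside -0.18. The comparisons share no libraries.

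Between the 2 cell sources none of these 5 was called by edgeR's test. From SE to TE 0 of 5 passed, against 7.21% of all genes (3.15% higher and 4.07% lower in TE), and DESeq2 called Scn7a. From SF to TF it was 0 of 5, against 24.2% of all genes (15.1% higher and 9.13% lower in TF), and DESeq2 called 0. Scn8a came nearest, with a log2 difference of -2.44 ± 1.24 (adjusted p = 0.185, edgeR), and it was -5.69 without TF1 (adjusted p = 0.0361). The other member that leaving out a library brought past the threshold was Scn3b, whose difference of 1.30 ± 0.91 became 4.93 without SF1 (adjusted p = 0.00228, edgeR). The difference between the 2 expansion effects (TE versus TF minus SE versus SF) was called for 0 of 5, against 14.3% of all genes (4.7% higher and 9.62% lower), and DESeq2 called Scn7a. For Scn7a it was -3.43 ± 1.03 (adjusted p = 0.0533, edgeR), close to the threshold, and leaving out TF1, TE2, SF2 or SE2 brought it past (adjusted p = 0.0495, 0.00463, 0.0288 and 0.00744). Unadjusted p-values under 0.05 were found for 1 of the 5 from SE to TE, for 0 from SF to TF and for 1 in the difference between effects.

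Levels can be compared between subunits only per length, and counts were therefore divided by the kilobases of the longest annotated transcript. On that scale the 7 members summed to 192 and 202 per kilobase in TF, 213 and 200 in TE, 158 and 170 in SF, and 549 and 284 in SE. Among the 7 members the leading gene changed with the group. Scn7a led in the 4 fresh libraries (46.1% to 82.6% of the members' sum) and Scn4a in both TE libraries (64.3% and 64.5%). SE was split. Scn9a led in SE1 with 76.3% of the members' sum, while in SE2 Scn4a led with 37.4% and Scn9a made up 21.7%. In the other 6 libraries Scn9a took at most 1.31% of it. In SE2 the members stood at 106 (Scn4a), 98.4 (Scn3b) and 61.7 (Scn9a) per kilobase, and in SE1 at 419 (Scn9a), 64.8 (Scn3b) and 55.8 (Scn4a).

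**Figure D5:**
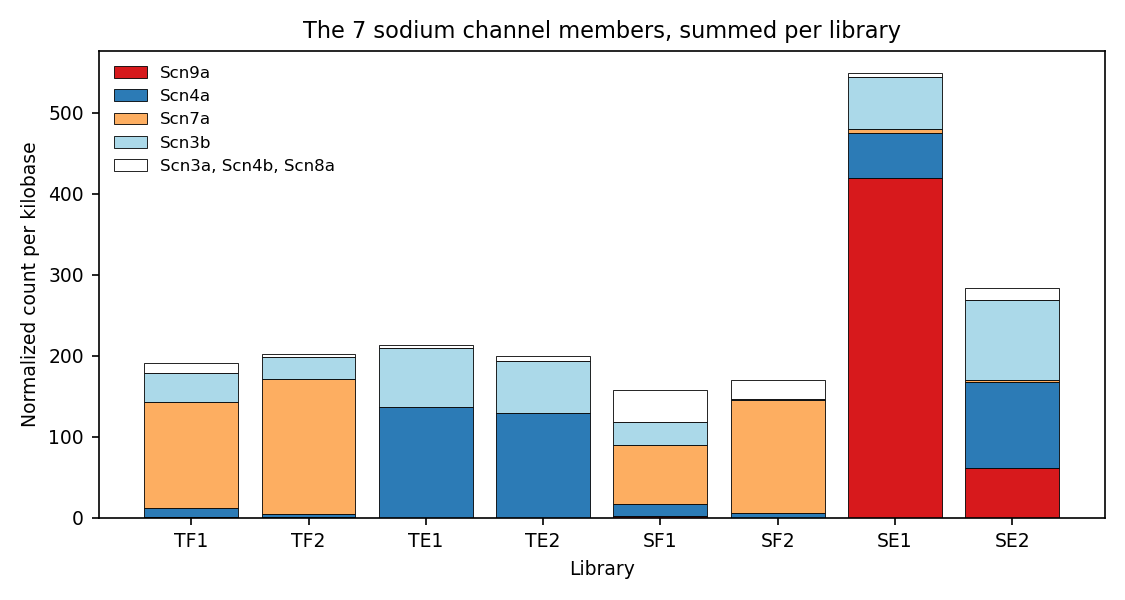
Normalized counts per kilobase of the longest annotated transcript, stacked for the 7 members in each library, with the axis from 0. Scn9a (red) took 76.3% of the sum in SE1 and 21.7% in SE2, Scn7a (orange) was visible mainly in the fresh libraries and Scn4a (blue) mainly in the expanded ones.

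Nalcn, the sodium leak channel, was at 159 to 244 in the 4 fresh libraries and at 0 in the 4 expanded ones, at least 69.5-fold lower in SE than in SF and 99.6-fold lower in TE than in TF. Of the 6 other sodium channel genes described (Scn1a, Scn2a, Scn2b, Scn10a, Scn11a and Nalcn), 0 were called higher and 2 lower from SF to SE (Scn2b, Nalcn), and 0 higher and 1 lower from TF to TE (Nalcn). Of all genes 20.9% were called higher and 19.8% lower from SF to SE, and 9.86% higher and 16.2% lower from TF to TE. Scn2b, a beta subunit, was at 250 and 59.8 in SF and at 12.6 and 24.3 in SE, and it fell by 2.85 ± 0.94 on the log2 scale (adjusted p = 0.0355, edgeR).

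Of 16 proteins that anchor, traffic or modify sodium channels 3 were called higher and 7 lower from SF to SE, where 20.9% and 19.8% of all genes were. From TF to TE it was 1 higher and 4 lower, against 9.86% and 16.2% of all genes. Cav3, the muscle caveolin, rose by 4.87 ± 0.82 and 2.29 ± 0.71 on the log2 scale, and Nfasc, which clusters channels at nodes, fell by 3.80 and 5.02 (edgeR's test). Under median-ratio scaling the counts were 2 higher and 9 lower from SF to SE and 0 and 4 from TF to TE. That scaling moved the calls over all 17582 genes in the same direction. From SF to SE they went from 3677 higher and 3475 lower to 3065 and 3956. From TF to TE they went from 1733 higher and 2848 lower to 1580 and 2947.

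Of 19 genes of muscle excitability 8 were called higher and 3 lower from SF to SE, and 8 higher and 4 lower from TF to TE, the same under median-ratio scaling. The shares over all genes were again 20.9% and 19.8%, and 9.86% and 16.2%. Cacna1s, the voltage sensor of excitation-contraction coupling, went from 169 and 58.2 in SF to 1896 and 4444 in SE, and from 290 and 165 in TF to 3476 and 3664 in TE. Chrnd, the delta subunit of the muscle acetylcholine receptor, went from 42.1 and 13.7 to 2634 and 2742, and from 79.2 and 57.8 to 1180 and 1274. Among 12 muscle differentiation genes 11 were called higher and 0 lower from SF to SE, and 9 higher and 0 lower from TF to TE, beside the same background shares. The fresh cells already differed, with 10 of the 12 called higher and 1 lower in TF than in SF (15.1% and 9.13% of all genes). In the difference between the expansion effects 9 were called lower and 0 higher (9.62% and 4.7% of all genes).

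Over the 8 libraries the genes most like Scn9a in log2(normalized count + 1) were Sct, which encodes the hormone secretin (Pearson r = 0.965), Map10 (0.949), Atxn1 (0.948), Pde4a (0.947) and Ppp1r14c (0.944). Sct was at 1761 in SE1 and 580 in SE2, and at 0 to 5.19 elsewhere. The other 4 were expressed in every library, so that Sct alone of the 5 shared the near absence outside SE. For Scn4a they were Lmo7 (0.980), Unc45b (0.979), a myosin chaperone, and Asb8 (0.977). Scn7a was most like Fam198a (0.993) and Srpx (0.990). Scn3b was most like Taf6l (0.991), Ska1 (0.988) and Drg2 (0.983). Scn4b was nearest to Gm3893 (0.997), Zfp335 (0.989) and Mfsd4a (0.988). For Scn8a they were Naip5 (0.984), Cnga3 (0.973) and 1500004A13Rik (0.965), and for Scn3a Maf1 (0.924), Nt5c3b (0.921) and Ap5b1 (0.913). Between Scn9a and the other members r ranged from -0.29 (Scn4b) to 0.43 (Scn3b), and Scn4a and Scn7a gave -0.94. These are descriptions over libraries that share 4 groups, and they were picked as the highest of 12678 or 12679 genes.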

How the data were processed

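The authors deposited 1 table of estimated counts per gene symbol, not normalized, and the submitters' processing notes name CASAVA, kallisto 0.44.0 and the build GRCm38 (mm10). The annotation and the strand setting are not given in the sources used here. Whole numbers made up 74.4% to 84.4% of each library, and all values were rounded for testing. The sample titles gave the group and the replicate number. The members and the gene lists were chosen with earlier results of these data known.

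Genes were kept with filterByExpr, scaled by TMM and tested with edgeR 4.0.16 (quasi-likelihood test, Benjamini-Hochberg adjustment, R 4.3.3) in a single model of the 4 groups with no term for replicates. Calls needed an adjusted p below 0.05 and a change of more than 1.25-fold, which are the study's thresholds. Standard errors were taken from the fold change and its F statistic. Printed levels are normalized counts by median-ratio size factors. A group with at most 3 counts in each library was taken as at the limit of detection (2.15 to 3.89 normalized counts), which covers counting error only. With only 2 libraries per group, the spread of each gene was estimated over all 8 libraries together and moderated across genes. A p-value thus does not measure the spread of the compared groups alone, and libraries outside a comparison enter it. The alternatives were median-ratio scaling, no filter, DESeq2 1.42.0, only the groups compared, a replicate block and each library left out. The fit was also run on simulated counts with the same dispersion for every gene, below the common dispersion of these data (0.233). Changes were planted only in genes with a mean of at least 50, so that run does not show how the fit does here. By rule, up to 4 called genes per list and comparison were eligible to be named (largest change, mean of at least 50 normalized counts), with the 5 or 3 most similar genes of each member and the 3 nearest genes in the table on each side of the chromosome 2 cluster. Coordinates are from GENCODE vM21 and promoters from RefSeq, where 5 of the 7 members matched. Some genes that the rule or the gene lists would name are not reported here.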

Additional observations from a re-analysis of the deposited data

Results flagged for a closer look

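The effect of expansion differed between teratoma-derived and satellite cells for some of the related genes, tested as TE versus TF minus SE versus SF on the log2 scale (edgeR's quasi-likelihood test with Benjamini-Hochberg adjustment). Of the 16 channel partners 3 were called higher and 1 lower, beside 4.7% and 9.62% of all genes. The difference was 1.26 ± 0.27 for Ank2 (adjusted p = 0.0149), 1.09 ± 0.27 for Nedd4l (adjusted p = 0.0246), 1.07 ± 0.30 for Ank3 (adjusted p = 0.0401) and -1.09 ± 0.29 for Nedd4 (adjusted p = 0.0353). Of the 19 excitability genes 5 were called lower and 1, Chrnb1, higher, beside 9.62% and 4.7% of all genes. The 4 largest called differences were -4.99 ± 0.91 for Cacng1 (adjusted p = 0.00658), -4.36 ± 1.03 for Chrng (adjusted p = 0.0215), -3.98 ± 0.50 for Atp1b1 (adjusted p = 0.00111) and -2.59 ± 0.51 for Chrnd (adjusted p = 0.00908). Levels in SF were low for 3 of the 4, at 17.8 and 1.14 normalized counts for Cacng1, 35.7 and 0 for Chrng and 42.1 and 13.7 for Chrnd. Between TE and SE only 1 of the 19 excitability genes was called, Chrna1, lower in TE (edgeR, against 4.07% of all genes lower). None of the 5 members other than Scn9a and Scn4b passed this test in edgeR (1 at an unadjusted p under 0.05), and DESeq2 called 1 of them, Scn7a. The edgeR share of all genes was 14.3%. Groups of 2 libraries were not searched for samples that stand apart.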

How the results depend on the processing

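The count of members called from SF to SE (4, Scn4b included, which passed the filter through SF alone) was 2 to 5 with single libraries left out and 3 to 5 in the other alternatives, and that from TF to TE (2) was 2 to 3 throughout. The calls of Scn4b in these counts are not read as results, because only its SF reads brought it past the filter. Scn4b aside, the main fit called 2 members higher (Scn3b, Scn4a) and 1 lower (Scn7a) from SF to SE. From SE to TE the count of members called went from 0 to 1 with no filter and with DESeq2. Over all genes 2260 and 2122 of 23005 were called there, beside 1268 of 17582 in the main fit. From SF to TF the count of members became 1 with no filter, where 5171 of 23005 genes were called, beside 4261 of 17582. For the difference between the expansion effects it became 1 with no filter, with DESeq2 and with the replicate block. Over all genes 3646 of 23005, 3418 of 23005 and 2327 of 17582 were called there, beside 2517 of 17582 in the main fit. The cause was not tested. Of 345 alternative values for single members, 298 kept direction and side of the threshold, 26 passed only in the alternative, 8 no longer passed and 13 reversed, none of them a called value. These values include those of Scn4b, whose differences are descriptions only, and most of the values that no longer passed were its own. Scn3a reversed from TF to TE with the replicate block (0.10). The other reversals came from leaving out 1 library. For Scn3a the log2 difference then ranged from -0.48 (without SE2) to 1.74 from SF to SE, from -0.77 to 1.61 (without TF1) from TF to TE, from -1.54 to 0.30 (without SE2) from SE to TE, from -1.77 to 0.87 (without SF1) from SF to TF, and from -1.77 to 0.87 (without TF1) in the difference between effects. It ranged from -2.82 to 1.35 (without TF1) for Scn8a from TF to TE, from -0.52 to 0.091 (without SE2) for Scn3b from SE to TE, and from -1.68 to 0.16 (without SF1) for Scn4a from SF to TF.

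Replicate numbers are shared between groups in the labels, but nothing says that they mark a common animal or day, and the deviations of same-numbered libraries correlated at -0.03 to 0.08. With the replicate block the members called were Scn3b, Scn4a and Scn7a from SF to SE, where 6757 of 17582 genes were. Scn4a and Scn7a were called from TF to TE, where 4321 genes were. None was called from SE to TE (1205 genes) or from SF to TF (3979 genes). Scn7a gained a call in the difference between effects (adjusted p = 0.0447, edgeR), where 2327 genes were called. Median-ratio scaling moved the median of all genes by -0.19 from SF to SE, -0.16 from SF to TF and 0.14 in the difference between effects, and no member changed sign. The share of calls that were higher in TF than in SF went from 62.3% to 52.1% under it. The ratio of Scn9a in SE1 to SE2 was 6.72 with TMM and 6.57 per library total, and its SE mean was 2439 with TMM. All members but Scn9a, Scn7a, Scn4a and Scn3b stayed at or under 208 normalized counts in every library, where single libraries decide most values.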

Other observations

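Some genes inside the sodium channel cluster encode no channel. Csrnp3, a nuclear protein, was at 112 and 30.9 normalized counts in SF and at 2.90 and 3.46 in SE, and it fell by 4.25 ± 1.31 on the log2 scale (adjusted p = 0.0268, edgeR). Galnt3, a glycosyltransferase, was at 144 and 25.8 in TF, at 6.37 and 0 in SF, and at no more than 2.31 in the expanded libraries, and no comparison passed the test.

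Scn2a, a neuronal subunit, was at 134 and 68.9 normalized counts in TF, 25.5 and 26.5 in TE, 95.1 and 45.9 in SF and 14.6 and 40.4 in SE, and no comparison of it passed the test. For Scn10a, Scn11a and Scn1a the highest values were 43.3, 31.8 and 30.9 normalized counts, each in SF1, and no comparison of them passed the test. Myh1, a myosin of fast fibers, was the only differentiation gene of 12 called between TE and SE, lower in TE by 4.73 ± 0.43 on the log2 scale (adjusted p = 0.000348, edgeR).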
